A study of Mus musculus with 18 samples.

Results

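The oligoadenylate synthetase (OAS) family was followed in the bone marrow of 18 mice. The family was taken as 8 genes, Oas1a, Oas1b, Oas1c, Oas1g, Oas2, Oas3, Oasl1 and Oasl2. A gene was measured where the platform annotation gave a probeset that gene's symbol and no other. 7 of the 8 genes had such a probeset, 1 each, and Oas1g had none listed, so it has no value here. The 7 probesets were chosen by name, with earlier results of these data known, from 34958 probesets with 1 symbol (18194 genes). All 7 passed the filter on low signals that left 26001 probesets for testing.

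Whole bone marrow was flash frozen after extraction from C57Bl6 mice, and total RNA was hybridised to Affymetrix arrays, 1 array per mouse. The groups were 4 wild-type mice (WT), 4 mice overexpressing CCAT2-G, 4 overexpressing CCAT2-T and 6 labelled CCAT2-GT overexpressing. CCAT2 is a human long non-coding RNA, and G and T are its alleles. The transgenic mice overexpressed the RNA in every tissue of the body. The series design joins the CCAT2-G and CCAT2-T mice as a DRAI- group of 8 and calls the CCAT2-GT mice DRAI+, a status that the labels do not spell out. The labels do not give the promoter, the number of founder lines or the mice's sex and age, and the transgene's own level was not analysed here. The labels call all mice of a group biological replicates.

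OAS enzymes bind double-stranded RNA and join ATP into short 2′-5′-linked oligoadenylates, a second messenger of antiviral defence. The genes are kept low in resting cells and are induced by interferons through GAAA-repeat elements near their start sites. The family is therefore a common readout of interferon signalling in blood cells, and its members also differ: some make oligoadenylates, and others have lost that activity or carry ubiquitin-like domains.

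Promoter sequence was in the RefSeq table for 6 of the 8 genes (Oas1a, Oas1c, Oas1g, Oas3, Oasl1 and Oasl2), and Oas1b and Oas2 were not in it. Each entry runs from 250 bases before to 50 bases after the start site. The core of the interferon-stimulated response element, 2 GAAA repeats separated by any 2 bases, was searched on both strands. It occurred in 3.44% of the 32851 promoters of that length (1131 promoters). The element was found in 4 of the 6 OAS promoters, shown here because they carry the element through which the family is known to be induced. The windows are 120 bases long, from GRCm38.p6 chromosome 5, read on the minus strand that carries the genes, and capitals mark the matches.
Oas1a, chr5:120907526-120907645: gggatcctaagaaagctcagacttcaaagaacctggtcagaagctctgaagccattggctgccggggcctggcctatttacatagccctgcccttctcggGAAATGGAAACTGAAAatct
Oas1g, chr5:120887614-120887733: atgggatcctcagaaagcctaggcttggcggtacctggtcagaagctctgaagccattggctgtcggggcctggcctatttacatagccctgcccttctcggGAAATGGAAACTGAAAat
Oas3, chr5:120777660-120777779: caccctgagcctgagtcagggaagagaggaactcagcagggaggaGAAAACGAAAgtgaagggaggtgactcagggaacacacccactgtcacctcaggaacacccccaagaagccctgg
Oas1c, chr5:120812515-120812634: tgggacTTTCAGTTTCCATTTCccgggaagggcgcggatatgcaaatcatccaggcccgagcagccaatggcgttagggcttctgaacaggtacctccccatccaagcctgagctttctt

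In Oas1a and Oas1g the capitals hold overlapping matches on the gene's own strand, just upstream of the start site. The first match in Oas1a begins at base -20 and the first in Oas1g at base -18. Oas3 held 1 match, beginning at base -75. In Oas1c both matches lay on the opposite strand, farther out, and also overlapped. No match was found in the windows of Oasl1 and Oasl2, which says only that these letters are not in those stretches. Oas1a and Oas1g were 82.8% identical over their 250 upstream bases (212 of 256 aligned positions), against 41.2% to 48.2% for the other pairs compared. Oas1a and Oas1g are close copies, and the probes' own sequences were not used here, so how much of the Oas1a signal comes from Oas1g RNA was not tested.

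All values are log2 expression as deposited by the authors, after robust multi-array averaging (RMA). Array medians lay between 4.27 and 4.40. The marrow's defining cells were present in every group: neutrophil markers had list means from 10.5 to 11.9 and erythroid markers from 8.72 to 9.55. 4 arrays, CCAT2-T mouse 3 and CCAT2-GT mice 2, 3 and 5, had high Xist (10.7 to 12.0, against at most 4.05 in the other 14) together with low Eif2s3y, a Y-linked gene, and no WT array was among them. 5 arrays, WT mice 1 and 2, CCAT2-G mouse 1 and CCAT2-T mice 1 and 2, had a narrower spread of signals, with an interquartile range of 2.90 to 3.07 against 3.15 to 3.36 elsewhere. These 5 are a set seen in the data and no recorded batch. 3 arrays, WT mouse 4 and CCAT2-GT mice 4 and 6, were highest for stromal markers.

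Oas1a encodes an active synthetase, and its probeset gave the largest difference from WT in the family. The WT mice read 7.04, 7.72, 6.79 and 6.43, the CCAT2-G mice 6.92, 7.32, 8.24 and 7.79, and the CCAT2-T mice 7.16, 7.27, 8.57 and 7.34. The CCAT2-GT mice ran from 7.24 through a median of 8.13 to 9.01. 5 of the 6 CCAT2-GT mice were above every WT mouse, and mouse 6 was inside the WT range. Group means were 7.00 ± 0.54 in WT (SD, n = 4), 7.58 ± 0.57 in DRAI- (SD, n = 8) and 8.23 ± 0.65 in DRAI+ (SD, n = 6). DRAI+ marrow was therefore 1.23 above WT on the log2 scale (SE 0.35, 95% interval 0.51 to 1.95), a 2.35-fold difference, with an unadjusted p = 0.00203 and an adjusted p = 1.00 (limma, Benjamini-Hochberg over 26001 probesets). In order of means the groups ran WT, CCAT2-G (7.57 ± 0.57), CCAT2-T (7.59 ± 0.66) and CCAT2-GT, and the neighbours CCAT2-G and CCAT2-T lay within their spread. DRAI- mice lay between, 0.58 above WT (SE 0.33, adjusted p = 1.00) and 0.65 below DRAI+ (SE 0.29, 95% interval 0.05 to 1.25, adjusted p = 0.486, limma). The 3 CCAT2-GT mice with high Xist read 8.18, 8.88 and 8.07 and the other 3 read 7.98, 9.01 and 7.24, so the ranges overlapped. Over all groups the 4 Xist-high arrays had a mean of 8.43 ± 0.37 (SD), against 7.45 ± 0.66 in the other 14. As 3 of those 4 were CCAT2-GT mice, that contrast is mixed with group.

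**Figure D1:**
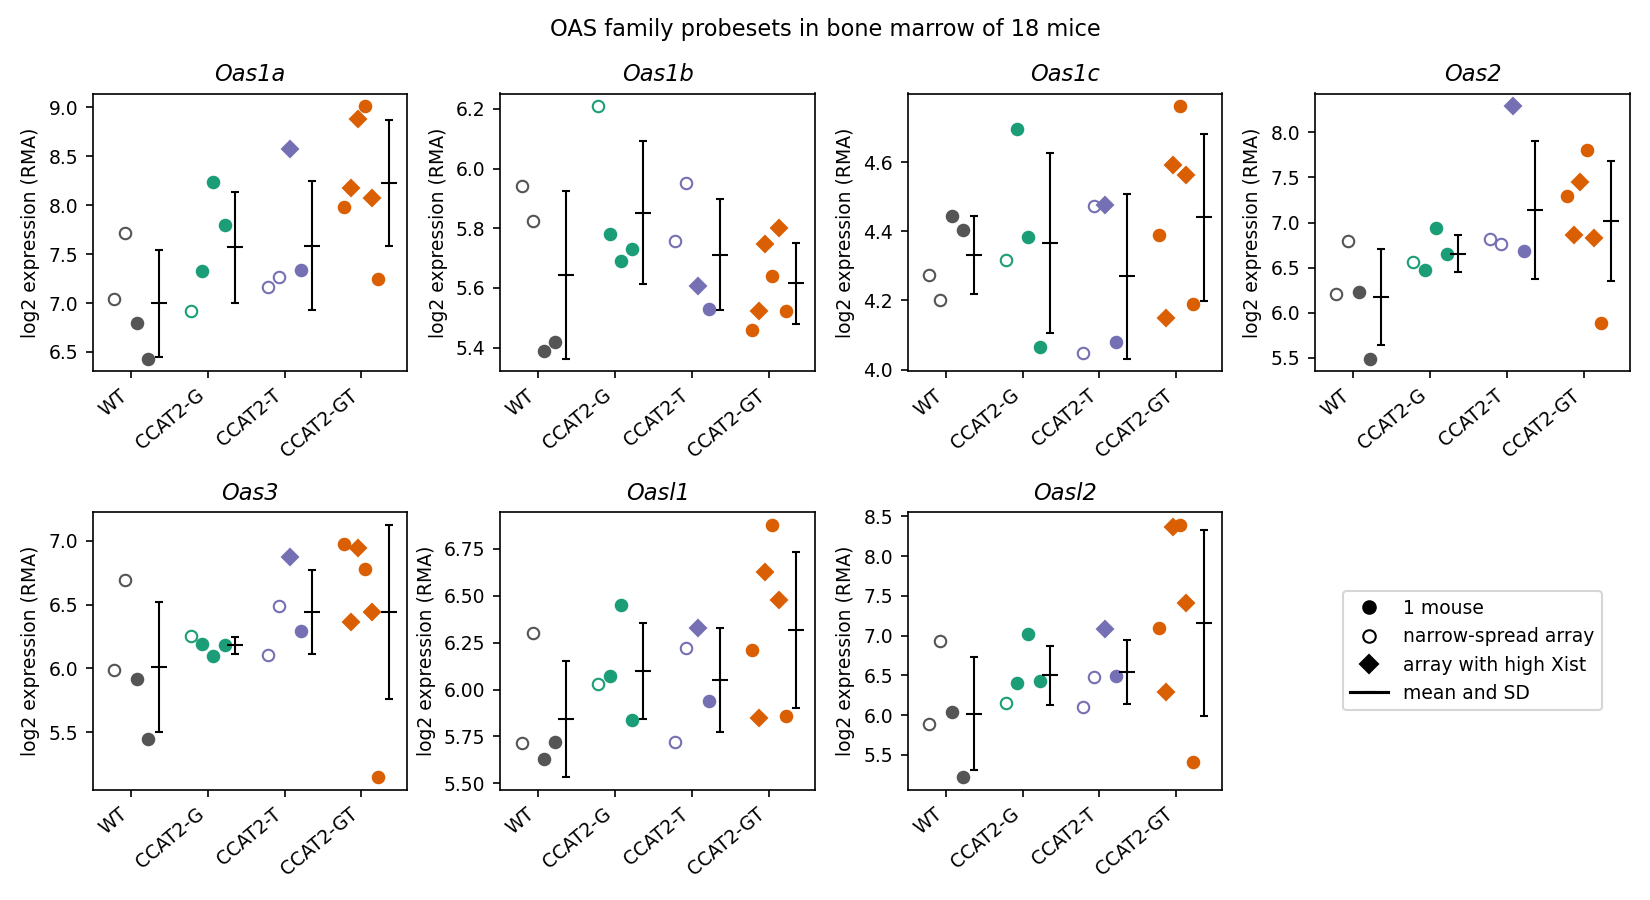
Log2 expression (vertical axis, RMA) of the 7 OAS probesets in each mouse by group (horizontal axis), with the group mean and SD beside the points; open circles are the 5 narrow-spread arrays and diamonds the 4 arrays with high Xist. In the Oas1a panel 5 of the 6 CCAT2-GT mice lie above every WT mouse, and every panel has overlapping groups.

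Oas2 and Oas3 encode the larger synthetases, built from repeated OAS units, and Oas3 is known as a main source of oligoadenylates in several cell types. Oas2 read 6.20, 6.79, 6.23 and 5.49 in WT, 6.56, 6.47, 6.94 and 6.65 in CCAT2-G, and 6.82, 6.76, 8.29 and 6.68 in CCAT2-T mice. In CCAT2-GT mice it ran from 5.89 through a median of 7.08 to 7.80. All 8 DRAI- mice were above the WT mean of 6.18 ± 0.53, 3 of them were above every WT mouse, and CCAT2-T mouse 3 was the highest of all 18. Oas2 was 0.84 higher in DRAI+ than in WT (SE 0.35, 95% interval 0.11 to 1.58, 1.79-fold, unadjusted p = 0.0265, limma). It was 0.72 higher in DRAI- than in WT (SE 0.33, 95% interval 0.02 to 1.41, 1.65-fold, unadjusted p = 0.0434, limma). Both adjusted p-values were 1.00, and without CCAT2-T mouse 3 the DRAI- difference was 0.52 (unadjusted p = 0.0724, limma). The DRAI+ and DRAI- means, 7.02 ± 0.66 and 6.90 ± 0.58, differed by 0.12 (SE 0.29, adjusted p = 0.889, limma), and both means were above that of WT.

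Oas3 read 5.98, 6.69, 5.92 and 5.45 in WT, 6.25, 6.19, 6.10 and 6.18 in CCAT2-G, and 6.10, 6.49, 6.87 and 6.29 in CCAT2-T mice. The CCAT2-GT mice ran from 5.15 through a median of 6.61 to 6.98. Here 3 of the 6 DRAI+ mice were above every WT mouse, while CCAT2-GT mouse 6 was below every WT mouse. DRAI+ was 0.43 above WT (SE 0.29, 95% interval -0.17 to 1.04, adjusted p = 1.00, limma) and DRAI- was 0.30 above WT (SE 0.27, adjusted p = 1.00). The interval of the first difference includes 0 and also a rise of 1.04, so neither can be set aside at this number of mice. The 4 CCAT2-G mice were the most alike for this gene, with an SD of 0.07.

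Oasl1 and Oasl2 encode OAS-like proteins with ubiquitin-like domains. Oasl1 is known as a brake on Irf7 translation, and mouse Oasl2 is an active synthetase. Oasl2 read 5.88, 6.93, 6.04 and 5.22 in WT, 6.15, 6.40, 7.02 and 6.43 in CCAT2-G, and 6.11, 6.48, 7.08 and 6.49 in CCAT2-T mice, and it ran from 5.41 through a median of 7.25 to 8.40 in CCAT2-GT mice. It was the most widely spread member inside the CCAT2-GT group: mice 3 and 4 read 8.36 and 8.40, above every other mouse, whereas mouse 6 was the second lowest of all 18. The DRAI+ mean of 7.16 ± 1.17 (SD, n = 6) was 1.14 above the WT mean of 6.02 ± 0.71 (SD, n = 4), with an SE of 0.45, a 95% interval of 0.19 to 2.09, an unadjusted p = 0.0213 and an adjusted p = 1.00 (limma). This is a 2.20-fold difference, and 4 of the 6 DRAI+ mice were above every WT mouse.

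Oasl1 read 5.71, 6.30, 5.63 and 5.72 in WT, and from 5.85 through a median of 6.34 to 6.88 in CCAT2-GT mice. The CCAT2-G mice read 6.03, 6.07, 6.45 and 5.84 and the CCAT2-T mice 5.72, 6.22, 6.33 and 5.94. WT mouse 2 stood apart from the other 3 WT mice and inside the range of the transgenic mice, and 3 of the 6 DRAI+ mice were above it. All 6 DRAI+ mice were above the WT mean of 5.84 ± 0.31. The difference was 0.47 (SE 0.20, 95% interval 0.06 to 0.89, 1.39-fold, unadjusted p = 0.0277, adjusted p = 1.00, limma). Against WT, the DRAI- mice were 0.23 higher for Oasl1 (SE 0.19) and 0.50 higher for Oasl2 (SE 0.43), both with an adjusted p of 1.00 (limma).

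Oas1b and Oas1c did not follow this order of groups. Oas1b is the flavivirus resistance gene, which carries a premature stop codon in C57BL/6 and most laboratory strains, and RefSeq classes it as a transcribed pseudogene in this genome. It read 5.94, 5.82, 5.39 and 5.42 in WT and from 5.46 through a median of 5.58 to 5.80 in CCAT2-GT mice. The CCAT2-G mice read 6.21, 5.78, 5.69 and 5.73 and the CCAT2-T mice 5.76, 5.95, 5.61 and 5.53, so all groups overlapped. DRAI+ and WT differed by -0.03 (SE 0.14, 95% interval -0.32 to 0.26, adjusted p = 1.00, limma), and CCAT2-G mouse 1 was the highest of all 18 mice. The 5 narrow-spread arrays read 5.76 to 6.21 for Oas1b and the other 13 read 5.39 to 5.80, and the part of array spread in this probeset was not tested.

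Oas1c encodes an OAS1-type protein without known synthetase activity. It read 4.27, 4.20, 4.45 and 4.40 in WT and from 4.15 through a median of 4.48 to 4.76 in CCAT2-GT mice. The CCAT2-G and CCAT2-T mice ran from 4.05 to 4.70, and the groups overlapped throughout. DRAI+ and WT differed by 0.11 (SE 0.14, 95% interval -0.19 to 0.41, adjusted p = 1.00, limma). The probeset's values varied little between mice, with an SD of 0.21 over all 18, which is percentile 38.4 of the tested probesets. The SD of Oas1b, also 0.21, was at percentile 36.8. Oas1a, Oas2 and Oasl2 had SDs of 0.73, 0.66 and 0.86 and lay at percentiles 97.9, 97.1 and 98.6, so these members were among the most variable signals in the marrow. Membership of the 4 groups accounted for 41.6% of the sum of squares of Oas1a, 32.4% of that of Oas2, 26.1% of that of Oasl1 and 26.0% of that of Oasl2. It accounted for 19.7% for Oas1b, 14.6% for Oas3, whose SD of 0.49 was at percentile 92.8, and 9.70% for Oas1c, against a median of 16.9% over all tested probesets. Most of the variation in each of the 7 members therefore lay between mice of the same group.

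**Figure D2:**
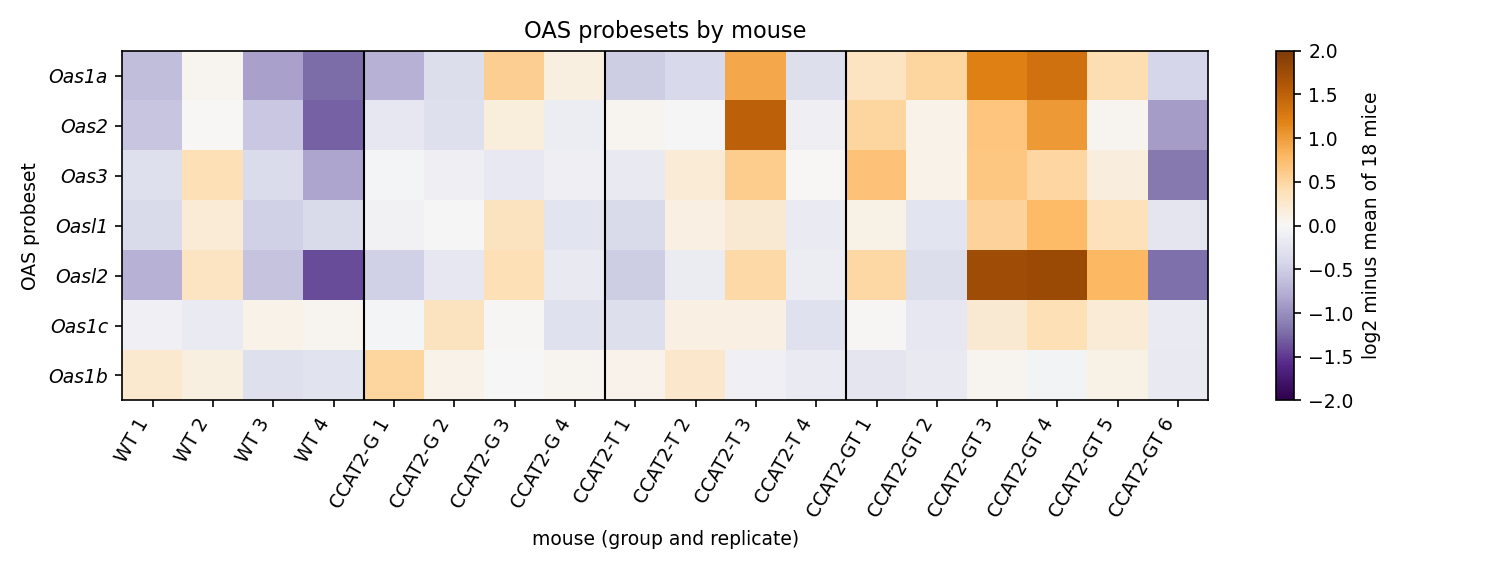
Log2 expression of each OAS probeset (rows) in each mouse (columns, grouped and numbered by replicate), drawn as the difference from that probeset's mean over the 18 mice. CCAT2-GT mice 3 and 4 and CCAT2-T mouse 3 are high, and WT mouse 4 and CCAT2-GT mouse 6 low, for Oas1a, Oas2, Oas3 and Oasl2, while the Oas1b and Oas1c rows show less contrast.

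The 3 group comparisons asked how marrow with a given transgene status differed from WT marrow and how the transgenic groups differed from each other. 0 of the 7 OAS probesets passed an adjusted p of 0.05 in DRAI+ against WT, and neither did any other probeset (0 of 26001, 0%, limma). The calls were also 0 among the members and 0% of probesets when DRAI- was set against WT, and again when both transgenic groups were compared. At an unadjusted p under 0.05, 4 of 7 members were higher in DRAI+ than in WT (Oas1a, Oas2, Oasl1 and Oasl2) and 0 were lower. With the Xist-high arrays as a block only Oas1a was past that level (unadjusted p = 0.0197), with Oas2 at 0.166, Oasl1 at 0.0798 and Oasl2 at 0.0921, and without the 4 arrays 2 members were, Oas1a and Oas2 (limma). Over all tested probesets 633 (2.43%) were past that level, 278 of them (1.07%) higher. By sign alone, 6 of the 7 were higher in DRAI+ than in WT, against 50.8% of all probesets. Oas1a, Oas2, Oas3, Oasl1 and Oasl2 moved together from mouse to mouse (r from 0.68 to 0.91). Counts of members, here and in the other comparisons, are therefore not counts of separate observations. Since the members were chosen with earlier results of these data known, their shares are also not independent of the data. The median member difference was 0.47, against 0.0025 over all probesets.

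In DRAI- against WT, 1 member was past an unadjusted p of 0.05 (Oas2, higher), against 1.37% of all probesets past that level and 216 (0.831%) higher. In DRAI+ against DRAI-, 1 member was (Oas1a, higher), against 9.91% of all probesets and 1234 (4.75%) higher. By sign, 6 of 7 members were higher in each of these comparisons, against 48.0% and 51.1% of all probesets. The members' median difference from WT was 0.30 in DRAI- mice, and DRAI+ exceeded DRAI- by a median of 0.13. The comparisons with WT share the same 4 WT mice, so they are not separate evidence. In whole marrow, more cells of an expressing type and more RNA per cell cannot be told apart.

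**Figure D3:**
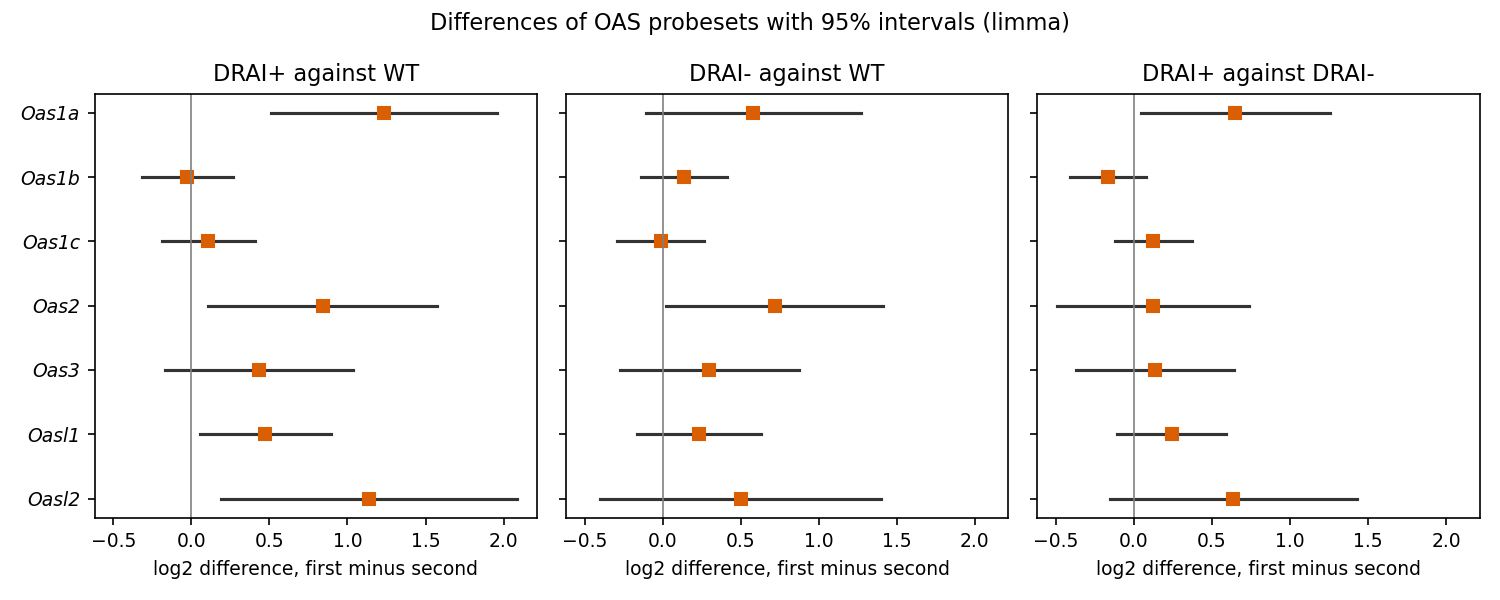
Log2 difference (horizontal axis, first group minus second) of each OAS probeset (vertical axis) in the 3 comparisons, with 95% intervals from limma. In DRAI+ against WT the intervals of Oas1a, Oas2, Oasl1 and Oasl2 lie above 0, and no difference passed the adjustment over all probesets.

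The alleles were also set against WT and each other, with 4 mice each. All 7 members were higher in CCAT2-G than in WT, against 51.8% of all probesets, by 0.57 for Oas1a (SE 0.39), 0.48 for Oas2 (SE 0.38) and 0.48 for Oasl2 (SE 0.51). 0 members and 0% of probesets were called, and 0 members were past an unadjusted p of 0.05, against 1.53% of probesets (limma). In CCAT2-T against WT, 6 of 7 were higher, against 48.6% of all probesets. Oas2, at 0.96 (SE 0.38, 95% interval 0.17 to 1.75, unadjusted p = 0.0202, adjusted p = 0.905, limma), was the 1 member past an unadjusted p of 0.05, against 4.15% of probesets (1.65% higher). Without CCAT2-T mouse 3 the difference was 0.58 (SE 0.34, unadjusted p = 0.109, limma). The other 3 CCAT2-T mice read 6.68 to 6.82, near WT mouse 2, the highest WT mouse, at 6.79. They were above the other WT mice, which read 5.49 to 6.23. CCAT2-G and CCAT2-T did not separate for any member. Oas2 differed by -0.48 (SE 0.38, 95% interval -1.28 to 0.31, adjusted p = 0.807) and Oas1a by -0.02 (SE 0.39, adjusted p = 0.994, limma). By sign 3 of 7 members were higher in CCAT2-G, against 51.2% of all probesets. Of all probesets, 0% were called, 7.02% were past an unadjusted p of 0.05 and 4.96% were higher at that level, with 0 members among them.

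The members differed in how closely they moved together from mouse to mouse. Over the 18 mice, the 10 pairs among Oas1a, Oas2, Oas3, Oasl1 and Oasl2 had Pearson's r from 0.68 to 0.91 and Spearman's rho from 0.70 to 0.88. Their permutation p-values, adjusted over the 21 pairs computed, ran from 0.000105 to 0.0038 for r and from 0.000105 to 0.00323 for rho. Oasl1 and Oasl2 were the closest pair (r = 0.91, rho = 0.88, permutation p = 1e-05, the smallest that 100000 permutations can give). Oas1a with Oasl2 (r = 0.89, rho = 0.87) and Oas2 with Oas3 (r = 0.86, rho = 0.81) followed. Without the 2 mice farthest from the median the 10 values of r were 0.64 to 0.90. Among the 13 wider arrays they were 0.67 to 0.92, and within groups, after each group's mean was taken off, 0.66 to 0.90. The shared movement was therefore present between mice of the same group.

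Oas1b had r between -0.06 and 0.19 with the 6 other members, with adjusted permutation p-values of 0.599 to 0.881. Among the 13 wider arrays its r was 0.34 to 0.59, so this lack of relation rests in part on the 5 narrow-spread arrays. Oas1c was related to Oasl1 (r = 0.65, adjusted permutation p = 0.00718, rho = 0.61, adjusted permutation p = 0.0171). Its relation to Oasl2 was weaker (r = 0.55, adjusted permutation p = 0.0309, rho = 0.48, adjusted permutation p = 0.0766). Without the 2 farthest mice these fell to r = 0.48 and r = 0.39.

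**Figure D4:**
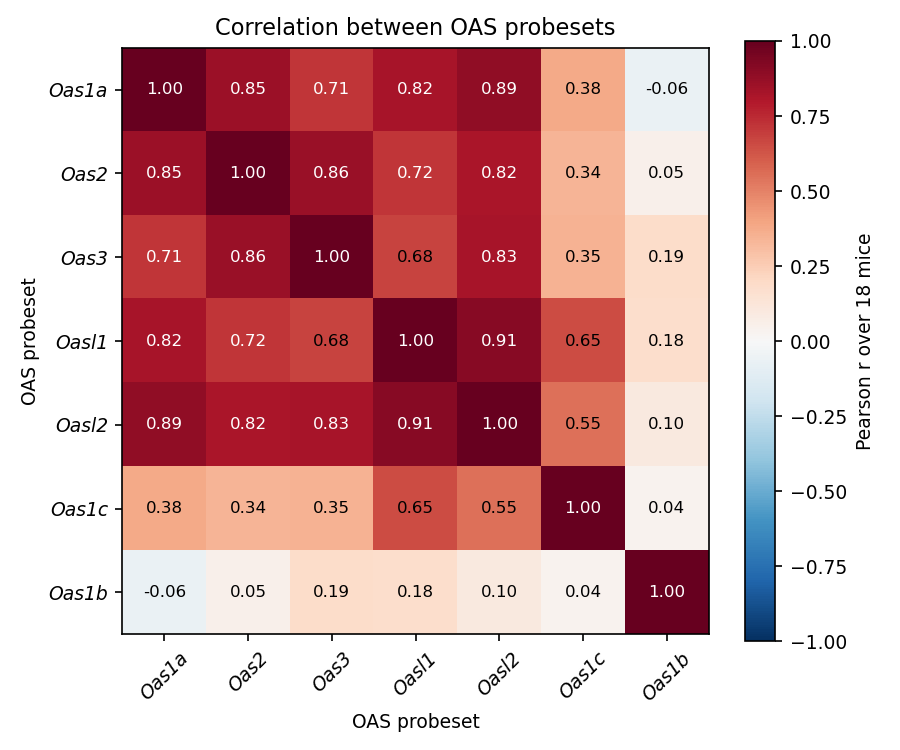
Pearson's r over the 18 mice (colour and printed value) between each pair of OAS probesets, which label both axes. Oas1a, Oas2, Oas3, Oasl1 and Oasl2 form a block of r from 0.68 to 0.91, and the Oas1b row and column lie between -0.06 and 0.19.

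A family profile, the mean over the 7 probesets of each mouse's standardised value, ordered the mice across group lines. CCAT2-GT mouse 4 (1.47 SD units) and mouse 3 (1.26) were highest, followed by CCAT2-T mouse 3 (0.86) and CCAT2-GT mouse 5 (0.62). WT mouse 4 (-1.31) and CCAT2-GT mouse 6 (-1.14) were lowest. The high end held 3 of the 4 Xist-high arrays, and the extremes held all 3 stroma-rich arrays, 1 high and 2 low. The differences with these sets blocked or left out were as follows, and their part in the family's levels was otherwise not tested.

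With the Xist-high arrays as a block, DRAI+ minus WT was 0.93 for Oas1a, 0.53 for Oas2, 0.23 for Oas3, 0.42 for Oasl1 and 0.90 for Oasl2. Without the 4 arrays it was 1.08, 0.82, 0.29, 0.47 and 0.94 in the same order. Without the 3 stroma-rich arrays it was 1.09, 0.70, 0.49, 0.41 and 1.00. In DRAI- against WT this setting left out only WT mouse 4, since no DRAI- array was in the stroma-rich set. DRAI- minus WT then dropped from 0.30 to 0.11 for Oas3 and from 0.50 to 0.23 for Oasl2. DRAI+ minus DRAI- for Oas3, without CCAT2-GT mice 4 and 6, moved from 0.13 to 0.37.

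Without the 5 narrow-spread arrays the DRAI+ differences of Oas1a, Oas2, Oas3, Oasl1 and Oasl2 were larger, at 1.62, 1.16, 0.76, 0.64 and 1.53. Those of DRAI- against WT were 1.24, 1.15, 0.64, 0.45 and 1.05. Only 2 WT mice remained in this setting, and the WT mice left out were the higher ones on average. The Oas1a mean was 6.61 in the WT mice kept and 7.38 in those left out. Inside the narrow set, where 3 DRAI- mice can be set against 2 WT mice and no DRAI+ mouse was found, Oas1a differed by -0.26, Oas2 by 0.22 and Oasl2 by -0.16. With arrays weighted by their agreement with their group, DRAI- minus WT was 0.04 for Oas1a, 0.27 for Oas2 and 0.01 for Oasl1, and the DRAI+ differences were 0.92, 0.57, 0.20, 0.37 and 0.95. The lowest adjusted p of any member in DRAI+ against WT was then 0.0581, for Oas1a (limma). DRAI+ kept its sign against WT for these 5 members in every setting run, while the DRAI- difference of Oas1a ran from 0.04 to 1.24 over the settings just named.

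Single mice also moved the values. Leaving out 1 mouse at a time gave DRAI+ minus WT from 1.04 to 1.47 for Oas1a, with the lowest value without WT mouse 4 and the highest without WT mouse 2. The range was 0.61 (without WT mouse 4) to 1.07 for Oas2 and 0.25 (without WT mouse 4) to 0.69 for Oas3, with the highest values without CCAT2-GT mouse 6. It was 0.36 to 0.63 for Oasl1 and 0.87 to 1.49 for Oasl2. The unadjusted p of Oas1a stayed at or below 0.0117 in these fits, while those of Oas2, Oasl1 and Oasl2 reached 0.116, 0.083 and 0.0898 (limma).

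**Figure D5:**
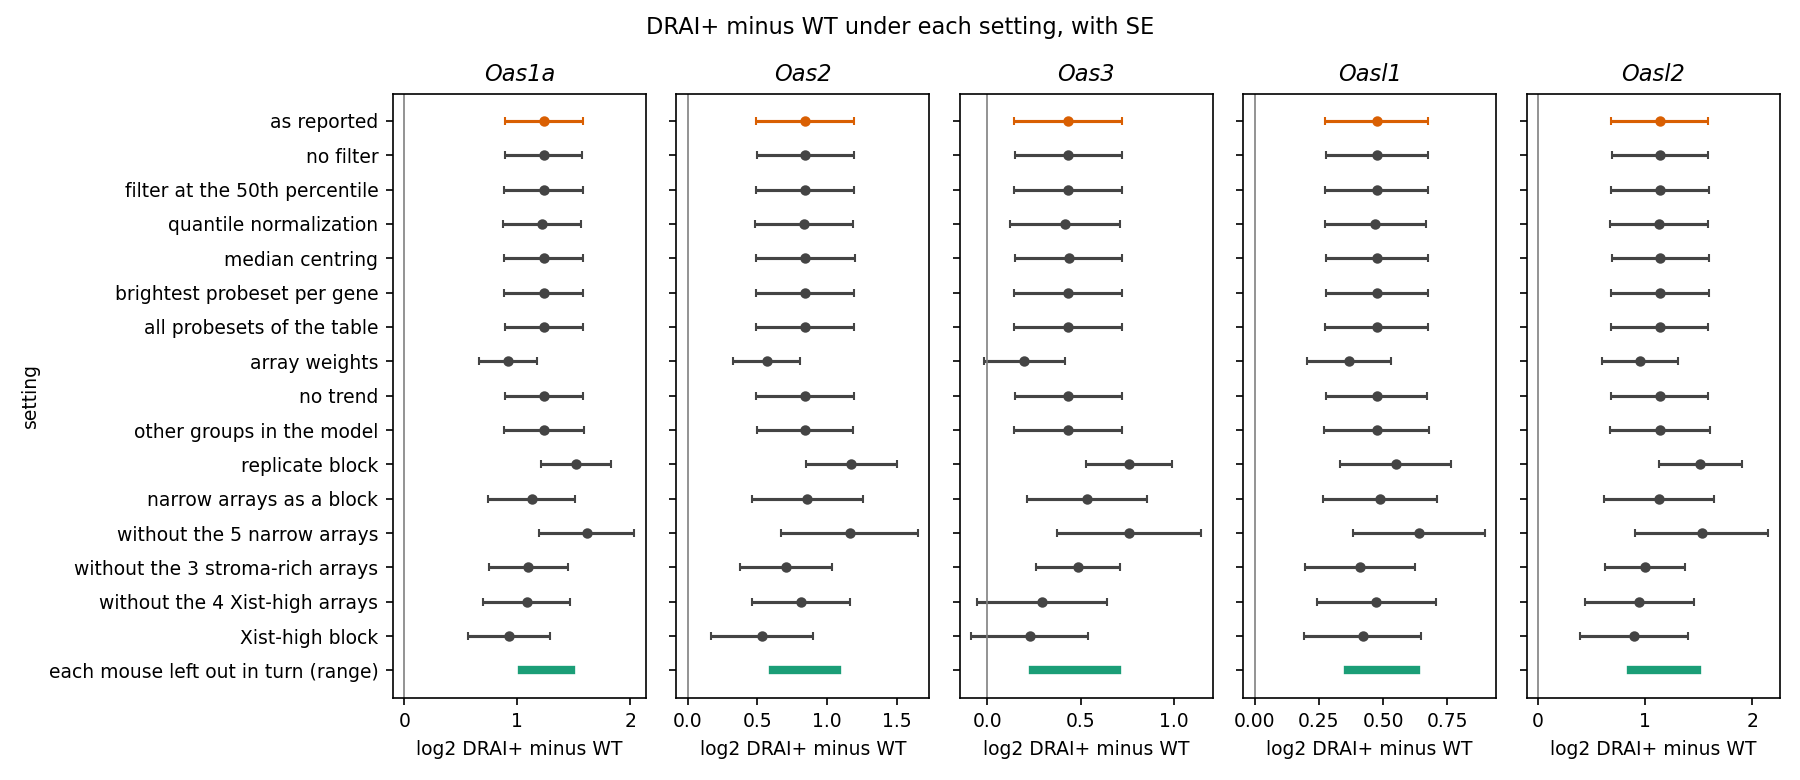
Log2 difference of DRAI+ minus WT (horizontal axis) for the 5 co-moving OAS genes under each way of processing (vertical axis), with the SE, and as a bar the range when each mouse is left out in turn. Oas1a lies between 0.92 and 1.62 in the settings drawn, and every value drawn for the 5 genes is above 0.

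The other genes of the interferon and double-stranded RNA pathway were read from lists of 73 genes, of which 61 were tested. The lists were chosen with earlier results of these data known, so the shares below are not independent of the data. 0 of 61 passed an adjusted p of 0.05 in any comparison. In DRAI+ against WT 45 were higher (73.8%, against 50.8% of all probesets) and 16 lower. 9 were past an unadjusted p of 0.05, all higher (14.8%, against 2.43% of all probesets in either direction, limma). By role, the median difference was 0.23 for the 19 antiviral effectors (15 higher), 0.18 for the 12 nucleic acid sensors (11 higher) and -0.13 for the 4 interferon ligands (1 higher). It was 0.10 for the 8 transcription factors, 0.03 for the 8 receptors and kinases, 0.02 for the 7 feedback inhibitors and 0.03 for the 3 other genes of the 2-5A axis. With DRAI- set against WT, 41 were higher (67.2%, against 48.0%) and 20 lower, and the 1 gene past an unadjusted p of 0.05 (1.64%) was near the background of 1.37%. Between DRAI+ and DRAI-, 38 were higher (62.3%, against 51.1%) and 23 lower, and the 5 higher and 2 lower past that level (11.5%) were near the background of 9.91%.

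Named members of these lists in DRAI+ against WT, all with an adjusted p of 1.00 (limma), began with the synthetases' own axis. Abce1, an ATP-binding ribosome recycling factor, differed by 0.14 (SE 0.19) and Akap7, whose family degrades 2-5A, by 0.03 (SE 0.18). Among the sensors, the DNA sensor Ifi204 was 0.86 higher (SE 0.26) and the RNA receptor Tlr7 0.48 higher (SE 0.20). The ligand Ifna5 differed by -0.17 (SE 0.16) and Ifna1 by -0.23 (SE 0.27), while the receptor chains Ifnar2 and Ifngr1 differed by 0.15 (SE 0.17) and 0.16 (SE 0.19). Of the 8 interferon transcription factors, 5 were higher and 3 lower, and 0 were past an unadjusted p of 0.05 (limma). Irf7 differed by 0.44 (SE 0.31), Irf9 by 0.34 (SE 0.17) and Stat2 by 0.24 (SE 0.16). The 3 lower factors were Irf3 at -0.14, Irf8 at -0.10 and Irf2 at -0.04. The feedback inhibitors Socs3 and Usp18 were 1.08 (SE 0.44) and 0.78 (SE 0.35) higher. Of the effectors and induced genes, Rtp4 was 1.02 (SE 0.38) and Parp12 0.76 (SE 0.20) higher.

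The genes whose levels ran most like the family profile were ranked by Pearson's r over the 18 mice among 14498 genes. Ifi27l2a (r = 0.90), Irf7 (0.90), Tap1 (0.89), Rtp4 (0.89) and Usp18 (0.88) came first, followed by Xaf1 (0.88), Irf9 (0.83), Rnf213 (0.83), Parp14 (0.82) and Rnf114 (0.80). The median r of all genes was -0.01. Within groups the r of the first 3 was 0.91, 0.90 and 0.90, so the likeness did not rest on the group means. All genes of a mouse were read on the same array, and no p is given for the ranking. In DRAI+ against WT, Ifi27l2a was 0.77 higher (SE 0.50), Tap1, the peptide transporter of antigen presentation, 0.32 (SE 0.22) and Xaf1 0.41 (SE 0.27), each with an adjusted p of 1.00 (limma).

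Cell type markers were read beside these values, as mean levels over each list. Markers of plasmacytoid dendritic cells, a cell type known for interferon production, were at 6.02 to 7.03 in WT, 6.37 to 7.52 in CCAT2-G, 6.65 to 7.06 in CCAT2-T and 5.96 to 7.57 in CCAT2-GT mice, so the groups overlapped. Monocyte and macrophage markers were at 9.04 to 9.38 in CCAT2-GT and 8.49 to 9.07 in WT mice, and ran from 8.32 to 9.43 in the DRAI- mice. B-cell markers were at 5.18 to 7.34 in CCAT2-GT and 6.45 to 8.47 in WT mice, and ran from 5.56 to 8.61 in the DRAI- mice. All 9 B-cell markers tested were lower in DRAI+ than in WT (median difference -1.19) and than in DRAI- (median difference -1.44), and 0 of them were called. CCAT2-GT mouse 6, among the lowest for the OAS genes, read 9.37 for monocyte and 5.73 for B-cell markers. That mouse was also the highest for stromal markers (7.71). Erythroid markers ran from 9.25 to 9.39 in WT and from 8.72 to 9.55 in CCAT2-GT mice, with medians of 9.33 and 9.09, and neutrophil markers from 11.0 to 11.6 and from 10.7 to 11.9. Stromal markers ran from 4.80 to 7.71 in CCAT2-GT and from 5.25 to 7.03 in WT mice, and T and NK cell markers from 5.80 to 6.58 and from 5.75 to 6.33. As a description over the 18 mice, with no p, Pearson's r with the family profile was -0.53 for erythroid, 0.39 for plasmacytoid dendritic cell, 0.37 for neutrophil, -0.29 for stromal, 0.25 for T and NK cell, 0.12 for monocyte and -0.01 for B-cell markers. Erythroid markers thus ran most closely, and inversely, with the family. The plasmacytoid dendritic cell list holds Bst2 and Irf8, which are also on the interferon pathway lists, so its r is not a reading of cell type alone. Between 8 and 9 of the 10 markers on each list had a probeset of their own. The part of cell makeup in the OAS differences was not tested.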

How the data were processed

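Values are log2 expression deposited by the authors in 1 table of 45101 probesets, made with RMA per the submitters' processing notes. Which RMA version and which probe definition file were used is not given in the sources used here. All 18 columns matched a sample. The number of arrays limits the precision, and limma's array weights differed between arrays of the same group. The platform annotation names 1 gene for 34958 probesets, several for 932 and none for 9211. Probesets with 1 symbol and a mean above the 30th percentile (3.30) were fitted with limma 3.58.1 (R 4.3.3, trended eBayes, tested on simulated data), with Benjamini-Hochberg adjustment at 0.05. The DRAI comparisons used WT, DRAI- and DRAI+ in 1 model, and the allele comparisons used 4 groups. Correlations, the family profile and promoter searches used Python 3.11.15, NumPy 2.4.6 and Biopython 1.88. Promoters were aligned globally with scores of 1 for a match and -1 for a mismatch, and are credited to RefSeq GRCm38.p6.

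Named genes were every member, the 2 smallest unadjusted p-values in DRAI+ against WT on each pathway list with Irf7 and Irf9, and the 10 genes most like the family profile. Outside that rule, the 3 interferon transcription factors that were lower in DRAI+ than in WT were named. The members and lists were chosen with earlier results of these data known. Filters, normalization, probeset choice, array weights, variance trend, groups in the model, a replicate block, the array sets and single mice were varied. Some genes of that rule are not reported here. Replicate numbers in the titles do not mark shared animals.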

Additional observations from a re-analysis of the deposited data

Results flagged for a closer look

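Each group of 4 to 8 mice was looked at for a mouse far from the others, in 35 groups of member values, and chance marks about 1 in 20 such groups. 5 marks were made, all for 1 mouse apart from its group. CCAT2-T mouse 3, an array with high Xist, read 8.57 for Oas1a, and its gap to the next mouse was 0.873 of the CCAT2-T range. It read 8.29 for Oas2, with a gap of 0.915 of the CCAT2-T range and, among all 8 DRAI- mice, 0.741 of their range. CCAT2-GT mouse 6, a stroma-rich array, read 5.15 for Oas3, below its group by 0.666 of the range. WT mouse 2, a narrow-spread array, read 6.30 for Oasl1, above the other WT mice by 0.865 of the range. The 35 groups are not independent, since members move together. The DRAI- group holds the CCAT2-T mice, so the marks on Oas2 are the same mouse.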

How the results depend on the processing

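No member was called under any of the 33 other settings (limma), and 676 of 693 member differences kept their sign. Part of that count was fixed in advance. The filters, probeset choice, variance trend and groups in the model leave a member's difference as it was. So does leaving out a mouse of a group outside the comparison. The count is therefore no measure of how stable the signs are. The 17 that changed sign were small. Oas1b in DRAI+ against WT was 0.16 with the narrow arrays as a block, 0.21 without them, and -0.11 to 0.072 with each mouse left out. Oas1c in DRAI- against WT was 0.085 with array weights, 0.011 without the stroma-rich arrays, and -0.068 to 0.025 with each mouse left out. Of the stroma-rich arrays only WT mouse 4 is in that comparison. In DRAI- against WT with array weights, Oas3 was -0.047 and Oasl2 -0.014. In DRAI+ against DRAI-, the Xist-high block, chosen after seeing the data, gave -0.11 for Oas2 and -0.0225 for Oas3, and leaving out each mouse gave -0.033 to 0.35 for Oas2. The cause was not tested.

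Over all probesets, where 0 were called, array weights called 645 in DRAI+ against WT (251 higher, 394 lower) and 2 in CCAT2-G against WT, weighting WT mouse 2 at 4.02 and WT mouse 4 at 0.388. All probesets of the table gave 2 calls in DRAI+ against DRAI-, and leaving out each mouse gave 0 to 98, with 98 without CCAT2-G mouse 3. Quantile normalization gave 1 in CCAT2-G against CCAT2-T. With a replicate block 0 members were called. Numbers 5 and 6 occur only among the CCAT2-GT mice, so this block gave CCAT2-GT mice 5 and 6 no weight in the DRAI+ differences. In DRAI+ against WT Oas1a was then 1.52 and Oas3 0.76. In DRAI+ against DRAI- Oas2 was 0.45, Oas3 0.46, Oas1a 0.94 and Oasl2 1.01. After group means were taken off, same-numbered mice of different groups had a mean r of 0.15 in 24 pairs (-0.32 to 0.66), 12 of them over 0.1. Other-numbered mice had a mean r of -0.03 in 96 pairs (-0.61 to 0.56), 34 of them over 0.1. The labels do not say what a shared number means, so the reported fits did not use it. Its part in the values was not tested.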

Other observations

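The annotation also names OAS1 copies outside the 8 genes. Oas1e read 6.83 to 7.15 on the 5 narrow-spread arrays and 5.99 to 6.93 on the other 13. Oas1h read 3.72 to 4.20 and 3.02 to 3.99, and Oas1f 4.21 to 4.63 and 3.98 to 4.41, in the same order. A probeset shared by Oas1d and Oas1e had a mean of 2.45, below the filter. The ranges overlapped for each of these, and the part of array spread was not tested.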
